A study of Mus musculus with 12 samples.

Results

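The genes of the perineuronal net were followed in ribosome-bound mRNA of Fmr1-/y and wild-type mice. It was pulled down by a tag directed to CA1 pyramidal cells of the hippocampus. The 9 genes were taken by symbol from the 24079 genes of the deposited count table, with 1 row for each. They are the lecticans Acan, Vcan, Bcan and Ncan, the link proteins Hapln1 and Hapln4, the tenascins Tnr and Tnc, and the metalloproteinase gene Mmp9. All 9 passed the filter of at least 15 reads summed over the 12 libraries, as did 17823 genes in all.

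The perineuronal net is a dense form of extracellular matrix that wraps the cell body and proximal dendrites of some neurons, best known around parvalbumin interneurons and, in the hippocampus, also around CA2 pyramidal cells. Chains of hyaluronan form its backbone, lecticans (proteoglycans that carry chondroitin sulfate) bind to hyaluronan, link proteins lock that bond, and tenascin-R joins the far ends of the lecticans to each other. MMP-9 is a secreted gelatinase that cuts matrix proteins near synapses, and its activity is a recurrent subject of work on FMRP, the RNA-binding protein encoded by Fmr1.

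Wild-type (Wfs1-CreERT2:RiboTag) and Fmr1-/y (Wfs1-CreERT2:RiboTag:Fmr1-/y) male mice aged 2 to 6 months were compared, with 6 libraries for each genotype and hippocampi of 4 to 6 mice pooled in each library. All mice of both genotypes carried the floxed, HA-tagged Rpl22 allele and a tamoxifen-inducible Cre under the Wfs1 promoter, and all received tamoxifen on 3 days, 1 week before the tissue was taken. The pulldown was therefore aimed at Wfs1-expressing cells through the tagged large ribosomal subunit, while Fmr1 was absent from the whole animal in the knockout. Library totals lay between 39400980 and 55745464 reads in wild-type and between 43106629 and 65565479 reads in Fmr1-/y mice. The libraries hold immunoprecipitated RNA, so that enrichment over whole hippocampus was not computed here.

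The labels were first checked. Fmr1 had 1971 to 2608 reads in the wild-type libraries, and 0 reads in 5 Fmr1-/y libraries with 1 read in the other. Wfs1, the gene whose promoter drives the Cre, stood at 307 ± 46.9 RPKM (reads per kilobase of transcript, scaled to library size; SD, n = 12 libraries), and all 7 CA1 markers were detected. Markers of other cell types were read as well. Gfap of astrocytes reached 96.6 ± 20.9 RPKM, Rgs14 of CA2 cells 66.9 ± 8.27, Cnp of oligodendrocytes 26.6 ± 4.52, Gad1 of GABAergic cells 17.7 ± 3.81, Pvalb of parvalbumin interneurons 6.59 ± 2.43 and Pdgfra of oligodendrocyte precursors 3.96 ± 0.773 RPKM. No marker of the 13 lists was at 0 in all libraries. In such pooled samples fewer cells of a type and less RNA per cell cannot be told apart. By staining, the study reported HA to be absent from CA2 cells, GABAergic cells, astrocytes and microglia. By qRT-PCR it found Gfap, Cnp, Gad1 and Pvalb depleted in the immunoprecipitate against the input. How reads of these markers came into the libraries was not tested. The levels given below can therefore not be assigned to CA1 cells alone.

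The 9 genes differed far more from each other than between genotypes. Per length of transcript, Bcan (brevican) was the highest with 49.4 ± 9.45 RPKM over the 12 libraries (SD), a level above that of 92.1% of the genes tested that had a transcript length. Ncan (neurocan) followed with 33.9 ± 2.03 RPKM and Hapln4, the link protein also called Bral2, with 18.2 ± 1.2497 RPKM. With the longest transcript as length, these 3 genes kept their order in 12 of 12 libraries, without overlap between neighbours. With the union of exons as length, Bcan was above Ncan in 8 of 12 libraries only, with overlapping ranges, while Ncan was above Hapln4 in all 12. A wide step came next, since the level of Hapln4 was 10.7 times that of Hapln1, the link protein also found in cartilage, at 1.70 ± 0.378 RPKM. Tnr (tenascin-R) had 1.48 ± 0.250 RPKM, and Hapln1 was above it in 9 of 12 libraries with overlapping ranges.

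The 4 remaining genes lay under 1 RPKM. Mmp9 had 0.604 ± 0.163 RPKM, Tnc (tenascin-C) 0.567 ± 0.117 and Vcan (versican) 0.493 ± 0.113, with overlapping ranges between neighbours in this order. Mmp9 was above Tnc in 5 of 12 libraries, so their order was not fixed. Acan (aggrecan), the lectican by which perineuronal nets are most often stained, was the lowest with 0.218 ± 0.0559 RPKM, above 15.6% of genes only. All libraries placed Vcan above Acan, by 2.26 times on average.

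**Figure D1:**
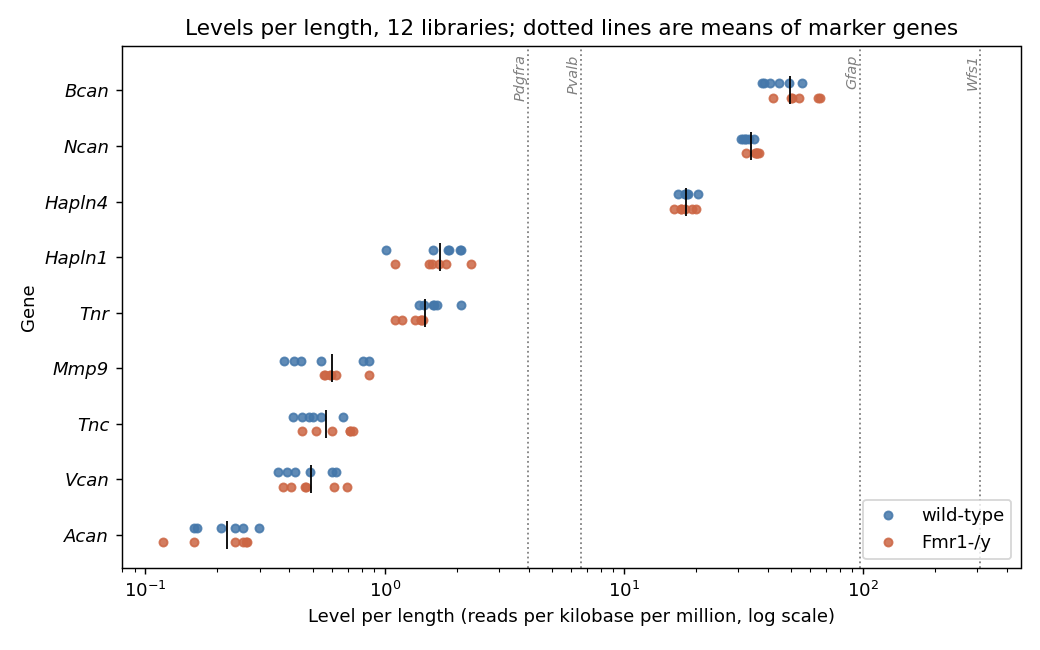
Level per length (RPKM, log axis) of the 9 genes in each of 6 wild-type (blue) and 6 Fmr1-/y (red) libraries. Black ticks are means over 12 libraries and dotted lines the mean levels of marker genes for CA1 pyramidal cells (Wfs1), astrocytes (Gfap), parvalbumin interneurons (Pvalb) and oligodendrocyte precursors (Pdgfra). Bcan, Ncan and Hapln4 stand at 49.4, 33.9 and 18.2 RPKM, and Acan at 0.218.

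Within the lecticans, brevican and neurocan made up nearly the whole sum of levels per length. In wild-type libraries Bcan held 56.9 ± 4.09% and Ncan 42.15 ± 3.94% of the summed lectican RPKM, while Vcan held 0.629 ± 0.167% and Acan 0.285 ± 0.0682% (SD, n = 6). In Fmr1-/y libraries the shares were 59.9 ± 4.08% for Bcan, 39.3 ± 3.87% for Ncan, 0.573 ± 0.196% for Vcan and 0.247 ± 0.0898% for Acan. The ranges of all 4 shares overlapped between the genotypes. With the union of exons as length, a check chosen after seeing the data, Bcan and Ncan were nearly even in wild type, at 50.6 ± 4.19% and 48.4 ± 4.04%, and held 53.7 ± 4.20% and 45.5 ± 3.99% in Fmr1-/y libraries.

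Genotypes were then compared by edgeR's quasi-likelihood test over all 17823 genes, to ask whether the loss of FMRP changes the ribosome-bound mRNA of the net. None of the 9 genes had a Benjamini-Hochberg adjusted p under 0.05, where 0.0224% of all genes tested did. By DESeq2's Wald test and by limma voom the count was also 0. The share was 0.571% of the 14713 genes given an adjusted p by DESeq2, and 0.0224% of all genes by limma voom. At an unadjusted p under 0.05 there were 3 genes in each of the 3 tests, Bcan and Ncan with higher and Tnr with lower levels in Fmr1-/y libraries. Over all genes 7.96% had an unadjusted p under 0.05, 4.29% with higher and 3.67% with lower levels, and the share was 8.47% in DESeq2 and 7.89% in limma voom. In no member did the 6 libraries of one genotype stand clear of the other, as they did with Fmr1-/y lower in 0.410% and with Fmr1-/y higher in 0.213% of genes. The median log2 fold change was 0.06 over the 9 members, with 5 above 0 and 4 below, and 0.00 over all genes.

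**Figure D2:**
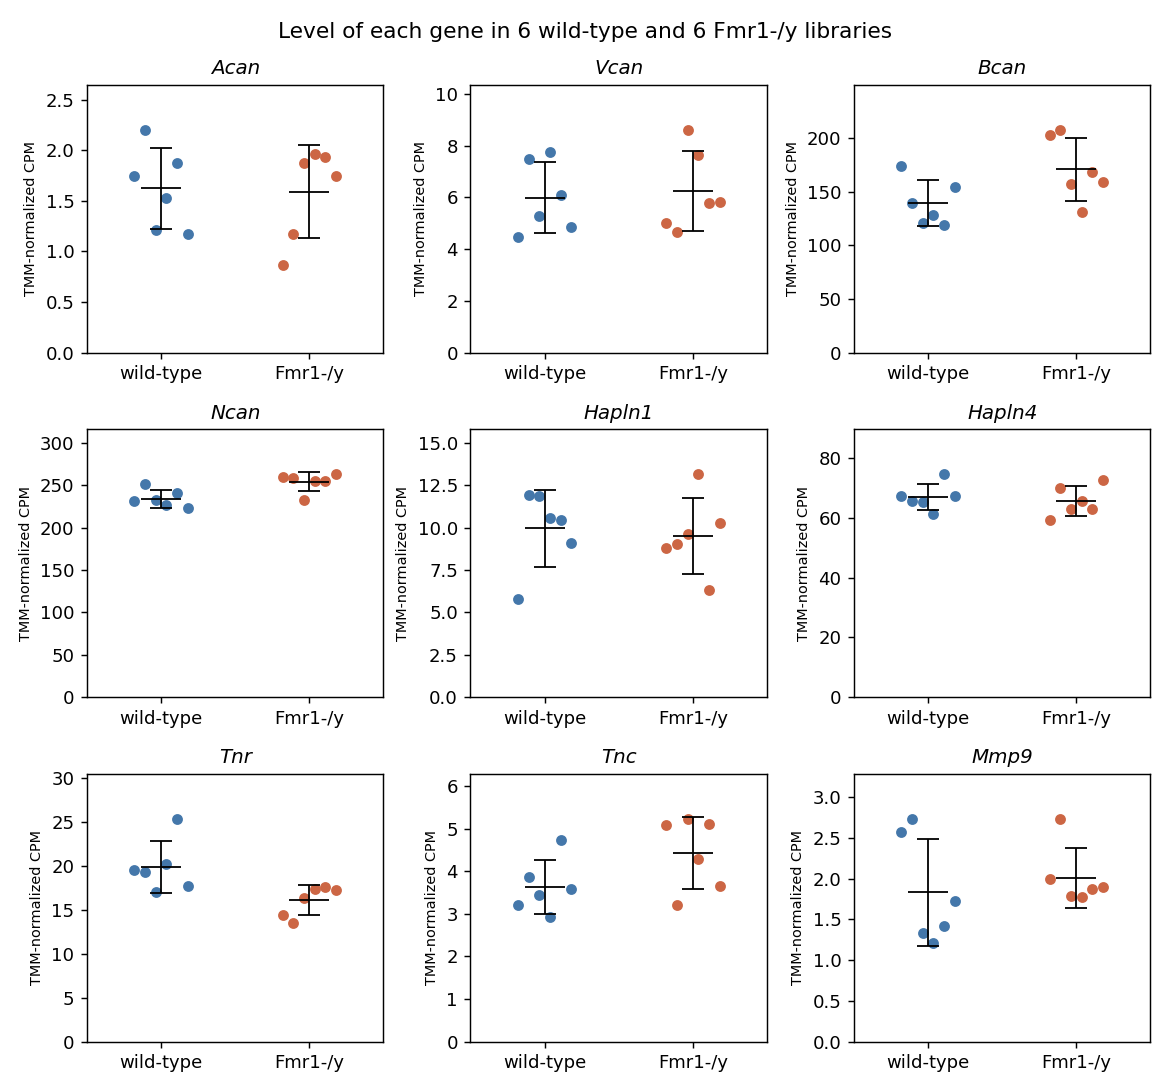
TMM-normalized CPM of each of the 9 genes by library (points), with the mean and SD of 6 wild-type (blue) and 6 Fmr1-/y (red) libraries; each axis starts at 0. The genotypes overlap in every panel, with the least overlap for Ncan (means 234 and 254 CPM) and Tnr (19.9 and 16.1 CPM).

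Bcan (Entrez 12032, GRCm38 chromosome 3 from 87987531 to 88002175, minus strand) encodes the smallest of the lecticans, made in the adult brain by glia and by some neurons. In wild-type libraries its level in CPM (reads scaled to library size, not divided by length) was 119 CPM at the lowest, 134 at the median and 174 at the highest, and in Fmr1-/y libraries 131, 164 and 208 CPM. The 2 highest values, 203 and 208 CPM, belonged to Fmr1-/y replicates 1 and 2, and 3 wild-type libraries were below the lowest Fmr1-/y library. The means were 139 ± 21.6 and 171 ± 29.4 CPM (SD, n = 6 each), a log2 fold change of 0.30 with a standard error of 0.11 (adjusted p = 0.496, edgeR; unadjusted 0.0171). Its 95% interval for the ratio of Fmr1-/y to wild-type, which is not adjusted for the number of genes, ran from 1.04 to 1.45. When single libraries were left out the unadjusted p was under 0.05 in 11 of the 12 fits (edgeR), and 0.0524 without Fmr1-/y replicate 2.

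Astrocyte markers were also high in the libraries with the most Bcan. The summed level of the 6 astrocyte markers ran from 726 to 889 CPM among wild-type and from 804 to 1246 CPM among the Fmr1-/y libraries, and its 2 highest values were again those of Fmr1-/y replicates 1 and 2. All 6 markers had higher means in Fmr1-/y libraries, 3 of them with an unadjusted p under 0.05 and none past the adjusted threshold (edgeR). Over all genes, 4.29% were higher in Fmr1-/y libraries with such an unadjusted p. The mean log2 level of the list was 0.21 higher (two-sided exact permutation test, p = 0.0584, adjusted over 13 lists 0.263). The part of these cells in the level of Bcan was not tested.

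Ncan (Entrez 13004, chromosome 8 from 70093085 to 70120863, minus strand), a brain lectican of neurons and astrocytes, was the most even of the 9 genes, with a coefficient of variation of 4.47% in wild-type and 4.35% in Fmr1-/y libraries. Its level was 222 CPM at the lowest, 231 at the median and 251 at the highest in wild-type, and 232, 257 and 263 CPM in Fmr1-/y libraries. Of the 6 Fmr1-/y libraries 5 were above every wild-type library, and replicate 3, at 232 CPM, lay among the wild-type values. The log2 fold change was 0.12 with a standard error of 0.05 (means 234 ± 10.5 and 254 ± 11.1 CPM, SD, n = 6 each; adjusted p = 0.586, edgeR; unadjusted 0.0360). The interval of the ratio was 1.01 to 1.17. When single libraries were left out the log2 fold change stayed between 0.10 and 0.14, and the unadjusted p was under 0.05 in 3 of the 12 fits.

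Vcan (Entrez 13003, chromosome 13 from 89655309 to 89743027, minus strand), a large lectican known from oligodendrocyte precursors, had 4.46, 5.67 and 7.76 CPM at the lowest, median and highest wild-type library. In Fmr1-/y libraries the values were 4.68, 5.80 and 8.62 CPM. The ranges covered each other almost fully. The log2 fold change was 0.06 with a standard error of 0.17 (adjusted p = 0.964, edgeR), and its interval allowed ratios from 0.810 to 1.35. The summed level of the 5 markers of oligodendrocyte precursors was 45.6 to 71.0 CPM (wild type) and 45.7 to 65.8 CPM (Fmr1-/y), and their mean log2 level differed by -0.02 (two-sided exact permutation test, p = 0.879).

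Acan (Entrez 11595, chromosome 7 from 79053226 to 79115099, plus strand) was read only 47 to 94 times in wild-type and 47 to 126 times in Fmr1-/y libraries. This gave 1.17, 1.64 and 2.204 CPM at the lowest, median and highest wild-type library and 0.867, 1.81 and 1.96 CPM in Fmr1-/y libraries. Fmr1-/y replicates 1 and 2 were below all wild-type libraries, while the other 4 lay above the wild-type median. The log2 fold change was -0.03 with a standard error of 0.24 (adjusted p = 0.990, edgeR), and the interval of the ratio ran from 0.693 to 1.39. Counting error alone gives a coefficient of variation of 11.8% at the mean count of wild-type Acan, and 24.7% was seen.

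Parvalbumin interneurons are a classic source of aggrecan, and their markers were compared between the genotypes. The 5 markers of that list summed to 13.6 to 27.2 CPM (wild type) and 14.5 to 23.7 CPM (Fmr1-/y), and the list did not pass (mean log2 difference -0.14, two-sided exact permutation test, p = 0.545). The 6 general GABAergic markers summed to 97.3 to 214 and 108 to 149 CPM (-0.02, exact permutation p = 0.935), and the 5 markers of CA2 cells to 193 to 249 CPM in both genotypes (0.03, exact permutation p = 0.682). The CA2 markers were not uniform, with 3 log2 fold changes above 0 and 2 below. In each direction 1 had an unadjusted p under 0.05 (edgeR), where 4.29% of all genes were higher and 3.67% lower with such a p.

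Both link proteins had log2 fold changes near 0. Hapln4 (Entrez 330790, chromosome 8 from 70083529 to 70090862, plus strand) had 61.2, 66.5 and 74.6 CPM at the lowest, median and highest wild-type library and 59.1, 64.2 and 72.7 CPM in Fmr1-/y libraries. Its log2 fold change was -0.03 with a standard error of 0.07 (adjusted p = 0.956, edgeR). The interval of the ratio, 0.889 to 1.08, was narrow for a gene with 2486 to 4109 reads in each library. Hapln1 (Entrez 12950, chromosome 13 from 89540529 to 89611832, plus strand) had 5.80, 10.5 and 11.9 CPM (wild type) and 6.30, 9.32 and 13.2 CPM (Fmr1-/y). The lowest value of each genotype, was that of replicate 1 in wild type and of replicate 5 in Fmr1-/y libraries, and the ranges overlapped. Its log2 fold change was -0.06 with a standard error of 0.17 (adjusted p = 0.964, edgeR; ratio between 0.741 and 1.23).

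Tnr (Entrez 21960, chromosome 1 from 159523729 to 159931729, plus strand) encodes the tenascin that cross-links lecticans in the net and is made largely by oligodendrocytes and some neurons. Its wild-type level was 17.0 CPM at the lowest, 19.5 at the median and 25.4 at the highest, and its Fmr1-/y level 13.5, 16.8 and 17.6 CPM. Of 6 wild-type libraries 5 were above every Fmr1-/y library, and the overlap came from wild-type replicate 3. The means were 19.9 ± 2.97 and 16.1 ± 1.73 CPM (SD, n = 6 each), 80.9% of wild type. The log2 fold change of -0.30, with a standard error of 0.10, had the smallest p of the 9 genes (adjusted p = 0.415, edgeR; unadjusted 0.00871; ratio between 0.697 and 0.941). It stayed between -0.35 and -0.22 when single libraries were left out, with an unadjusted p under 0.05 in 12 of 12 fits and an adjusted p of at least 0.365.

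Oligodendrocyte markers were set beside this. The summed level of the 6 markers was 1085 to 1629 CPM (wild type) and 978 to 1491 CPM (Fmr1-/y), with lower means in Fmr1-/y libraries for 5 of the 6 and an unadjusted p under 0.05 for none (edgeR). Their mean log2 level differed by -0.12 (two-sided exact permutation test, p = 0.351). The CA1 list was lower in all 7 markers, 3 of them with an unadjusted p under 0.05 (edgeR), where 3.67% of all genes were lower with such a p. Its summed level was 2139 to 2864 CPM (wild type) and 1943 to 2552 CPM (Fmr1-/y) (mean log2 difference -0.18, exact permutation p = 0.102). The part of either cell type in the level of Tnr was not tested.

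Tnc (Entrez 21923, chromosome 4 from 63959785 to 64047015, minus strand), a tenascin of developing and injured tissue that adult astrocytes make at low level, had 2.93, 3.51 and 4.74 CPM at the lowest, median and highest wild-type library. In Fmr1-/y libraries it had 3.21, 4.68 and 5.23 CPM, and 3 of these libraries were above all wild-type ones. The log2 fold change of 0.29 was close to the 0.30 of Bcan, with a wider standard error of 0.16 (adjusted p = 0.694, edgeR; unadjusted 0.0817; ratio between 0.972 and 1.54). With wild-type replicate 5 or Fmr1-/y replicate 2 left out, the unadjusted p was 0.0281 and 0.0285 (edgeR). These were the only 2 of the 12 fits without 1 library in which it was under 0.05, and it reached 0.167.

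Mmp9 (Entrez 17395, chromosome 2 from 164940326 to 164955850, plus strand) was counted 49 to 138 times in wild-type and 79 to 138 times in Fmr1-/y libraries. Its level was 1.21 CPM at the lowest, 1.57 at the median and 2.73 at the highest in wild-type, and 1.77, 1.88 and 2.73 CPM in Fmr1-/y libraries. Wild-type replicates 1 and 2 and Fmr1-/y replicate 2 were high, at 2.57, 2.73 and 2.73 CPM, and the other 4 wild-type libraries lay below all Fmr1-/y libraries. The means were 1.83 ± 0.659 and 2.01 ± 0.365 CPM (SD, n = 6 each), with a log2 fold change of 0.13 and a standard error of 0.23 (adjusted p = 0.942, edgeR). The interval of the ratio ran from 0.789 to 1.52. The coefficient of variation was 36.1% between wild-type libraries, where counting error alone gives 11.03%. Without Fmr1-/y replicate 2 the log2 fold change was 0.02, and without wild-type replicate 2 it was 0.28.

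Neutrophils and microglia can make MMP-9, and their markers were compared too. The 5 neutrophil markers summed to 10.01 to 38.6 CPM (wild type) and 15.1 to 37.9 CPM (Fmr1-/y) (mean log2 difference 0.35, two-sided exact permutation test, p = 0.331). The 6 microglial markers summed to 79.01 to 94.2 and 81.7 to 106 CPM (0.00, exact permutation p = 0.994). Aif1 of microglia had 4.35 ± 0.505 RPKM and S100a8 of neutrophils 6.04 ± 2.21 RPKM (SD, n = 12).

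**Figure D3:**
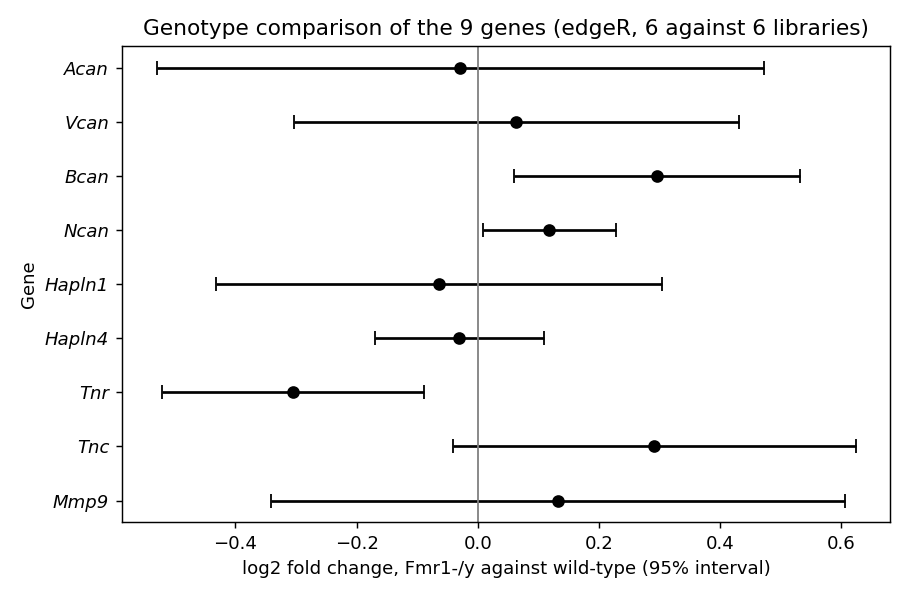
Log2 fold change of each of the 9 genes in Fmr1-/y against wild-type libraries from edgeR's quasi-likelihood test (points), with its 95% interval (bars) not adjusted for the number of genes tested. The intervals of Bcan, Ncan and Tnr leave out 0, and those of Tnc and Mmp9 reach past a ratio of 1.5.

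For 7 of the 9 genes the whole interval of the ratio lay within 1.5-fold in either direction, and for Tnc and Mmp9 its upper end passed 1.5.

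The genes of the net also lie in pairs on the chromosomes, each of the 4 lecticans next to a link protein gene with no protein-coding gene between them in the GENCODE annotation of GRCm38. Ncan and Hapln4 are 2222 bases apart, Acan and Hapln3 1927, Bcan and Hapln2 18382, and Vcan and Hapln1 43476 bases. In 3 pairs the genes run towards each other, with their 3′ ends facing, and Bcan and Hapln2 run in the same direction. The counts used the strand of the reads, so reads of facing genes were assigned apart. In the GENCODE annotation Mir7066 overlaps the span of Ncan, and Gm37731 and Gm10530 that of Tnr, on the same strand. The counts were made with UCSC gene models in union mode, which drops reads that match several genes. Whether those models hold the overlapping genes was not checked.

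**Figure D4:**
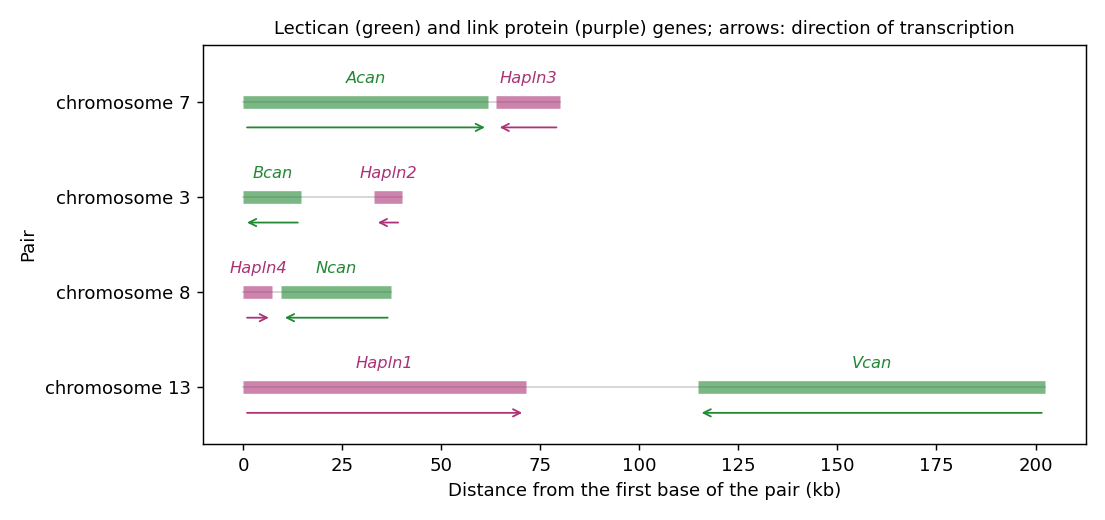
The 4 neighbouring pairs of a lectican gene (green) and a link protein gene (purple), drawn to scale as the distance in kb from the first base of each pair, with arrows for the direction of transcription. The gaps are 1927 bases for Acan and Hapln3, 18382 for Bcan and Hapln2, 2222 for Ncan and Hapln4, and 43476 for Vcan and Hapln1.

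The neighbours were both high in Ncan (33.9 RPKM) and Hapln4 (18.2 RPKM) and both low in Acan (0.218 RPKM) and Hapln3 (0.181 ± 0.0603 RPKM, SD, n = 12). Hapln2, known from the nodes of myelinated axons, had 1.34 ± 0.593 RPKM beside the high Bcan, and Hapln1 1.70 RPKM beside the 0.493 RPKM of Vcan. Across the 12 libraries, with the mean of each genotype subtracted, the log2 levels of Vcan and Hapln1 had a Pearson r of 0.558 (permutation p = 0.0739) and a Spearman rho of 0.608 (permutation p = 0.0536), and r was 0.649 without the 2 libraries farthest from the median of Vcan. The other 3 pairs had a Pearson r of 0.327 (Ncan and Hapln4), -0.0189 (Bcan and Hapln2) and -0.283 (Acan and Hapln3). Without the 2 libraries farthest from the median of the lectican these were 0.455, 0.00744 and 0.360, so that the negative sign of Acan and Hapln3 rested on 2 libraries. After adjustment over the 4 pairs the permutation p of r was 0.296 for Vcan and Hapln1, 0.559 for Ncan and Hapln4 and for Acan and Hapln3, and 0.958 for Bcan and Hapln2.

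Among the 36 pairs of the 9 genes themselves, the Pearson r after subtracting genotype means ran from -0.697 to 0.717 over the 12 libraries, and none passed an adjusted permutation p of 0.05 by r or by rho. Of these pairs 5 had an unadjusted permutation p of r under 0.05. The pair with the smallest p of r was Acan and Tnr (r = 0.717, permutation p = 0.00856, adjusted 0.182; rho = 0.636, permutation p = 0.0358; r = 0.694 without the 2 farthest libraries). Bcan had positive values with Mmp9 (r = 0.673, adjusted permutation p = 0.182; rho = 0.853, adjusted permutation p = 0.0518; r = 0.427 without the 2 farthest libraries) and negative ones with Vcan (r = -0.697, adjusted permutation p = 0.182; rho = -0.692, adjusted permutation p = 0.279; r = -0.749 without the 2 farthest libraries). With Hapln1 the values of Bcan were negative too (r = -0.68, adjusted permutation p = 0.182, and rho = -0.692, adjusted permutation p = 0.279). The spread over libraries was larger than counting error for all 9 genes in both genotypes.

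The genes with the library pattern most like each member were sought among 13767 genes with a mean of at least 1 CPM, by Pearson r of the same deviations over 12 libraries. As the highest of so many values, these r are a description without a test. They were Dlk2 (0.881) and Cacna1a (0.857) for Acan, Gm1141 (0.965) and Slc16a14 (0.952) for Vcan, Snrpf (0.957) and Wdr83os (0.949) for Bcan, and Gm16973 (0.877) and Lrrc32 (0.876) for Ncan. For the link proteins they were Fam78b (0.963) and Dpysl3 (0.958) with Hapln1, and Ptprn2 (0.891) and Pcdhb15 (0.887) with Hapln4. Pcdhb22 (0.914) and Ints7 (0.890) were nearest to Tnr, Lmf1 (0.896) and Mlxipl (0.882) to Tnc, and Alg2 (0.964) and Dph5 (0.912) to Mmp9. No member was among the 2 nearest genes of another.

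The wider machinery of the net was covered by 73 genes in 8 lists, of which 71 were tested. Chst13, with 2 reads in all, and Plg, with 7, fell under the filter. None of the 71 passed an adjusted p of 0.05 by edgeR or by DESeq2, 7 had an unadjusted p under 0.05 in edgeR (4 higher and 3 lower in Fmr1-/y libraries), where 7.96% of all genes did, and 8 in DESeq2, where 8.47% did. The share of pathway genes was thus near that of all genes, and the median log2 fold change was 0.00. The adjusted p-values below are those of edgeR's quasi-likelihood test.

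Of 8 tested genes tied to the activation, induction or targets of MMP-9, Bsg had the smallest p of all 71. Bsg encodes basigin (EMMPRIN), a membrane glycoprotein known to induce metalloproteinases, and was the highest gene of its list with 298 ± 42.1 RPKM (SD, n = 12). Its wild-type level ran from 367 to 440 CPM and its Fmr1-/y level from 413 to 614 CPM (means 415 ± 27.5 and 496 ± 65.9 CPM, n = 6 each; log2 fold change 0.26 with a standard error of 0.08, adjusted p = 0.361, unadjusted 0.00443). Nlgn1, the synaptic adhesion protein neuroligin-1, had means of 59.3 ± 2.87 (wild type) and 54.2 ± 3.04 CPM (Fmr1-/y) (log2 fold change -0.13, adjusted p = 0.618). In this list 3 genes had a log2 fold change above 0 and 5 below.

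Among 13 metalloproteinases of the MMP and ADAMTS families, 7 had a log2 fold change above 0 and 6 below, with a median of 0.14. The membrane-anchored Mmp17 was the highest of them at 26.8 ± 2.44 RPKM. It had 170 to 199 CPM (wild type) and 148 to 183 CPM (Fmr1-/y) (log2 fold change -0.17 with a standard error of 0.06, adjusted p = 0.496, unadjusted 0.0173). Mmp3 was at the edge of detection, with 6 reads over all wild-type and 11 over all Fmr1-/y libraries. The gelatinase Mmp2 stood at 1.45 ± 0.348 RPKM, above the 0.604 RPKM of Mmp9.

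Of the 5 inhibitors, 4 had a log2 fold change above 0. Timp2, an inhibitor abundant in brain, was the highest at 59.8 ± 7.55 RPKM. Timp3, the matrix-bound inhibitor, had 93.8 to 124 CPM (wild type) and 107 to 168 CPM (Fmr1-/y) (means 104 ± 10.8 and 127 ± 25.5 CPM, n = 6 each; log2 fold change 0.29 with a standard error of 0.11, adjusted p = 0.495, unadjusted 0.0166). The classic MMP-9 inhibitor Timp1 was barely detected, with 54 reads over the wild-type and 55 over the Fmr1-/y libraries.

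Chondroitin sulfate is built on the lecticans by chain-making enzymes, 11 of which were tested, and by sulfotransferases and related enzymes, 9 of which were tested. B3gat3, which adds the last sugar of the linkage region, was the highest of the former at 58.8 ± 4.90 RPKM, and the 4-O-sulfotransferase Chst11 of the latter at 15.2 ± 1.15 RPKM. Xylt1, a xylosyltransferase that starts the chain, had means of 10.3 ± 2.83 (wild type) and 7.55 ± 2.15 CPM (Fmr1-/y), with ranges of 5.85 to 13.03 and 4.78 to 11.4 CPM (log2 fold change -0.45 with a standard error of 0.20, adjusted p = 0.595, unadjusted 0.0391). Without it no enzyme of either list had an unadjusted p under 0.05. Of the sulfation enzymes 2 had a log2 fold change above 0 and 7 below, with a median of -0.06.

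None of 10 genes of hyaluronan synthesis, breakdown and binding had an unadjusted p under 0.05 (5 above and 5 below 0). The highest was the hyaluronan-depolymerizing Cemip at 6.14 ± 1.15 RPKM, and of the synthases Has3 had 1.42 ± 0.253, Has1 0.155 ± 0.0634 and Has2 0.129 ± 0.0752 RPKM. Among 11 other proteoglycans, receptors of chondroitin sulfate and proteins bound in the net, the receptor phosphatase Ptprs was the highest at 56.03 ± 3.24 RPKM. The homeoprotein Otx2, which accumulates in nets but is transcribed mainly in choroid plexus, had 22.4 to 39.1 CPM (wild type) and 25.7 to 55.2 CPM (Fmr1-/y) (log2 fold change 0.39 with a standard error of 0.17, adjusted p = 0.572, unadjusted 0.0321). In the list of other link proteins and tenascins, Tnxb had means of 10.99 ± 1.97 (wild type) and 13.4 ± 1.46 CPM (Fmr1-/y) (log2 fold change 0.28, adjusted p = 0.564, unadjusted 0.0310), and Hapln2 was the highest per length.

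**Figure D5:**
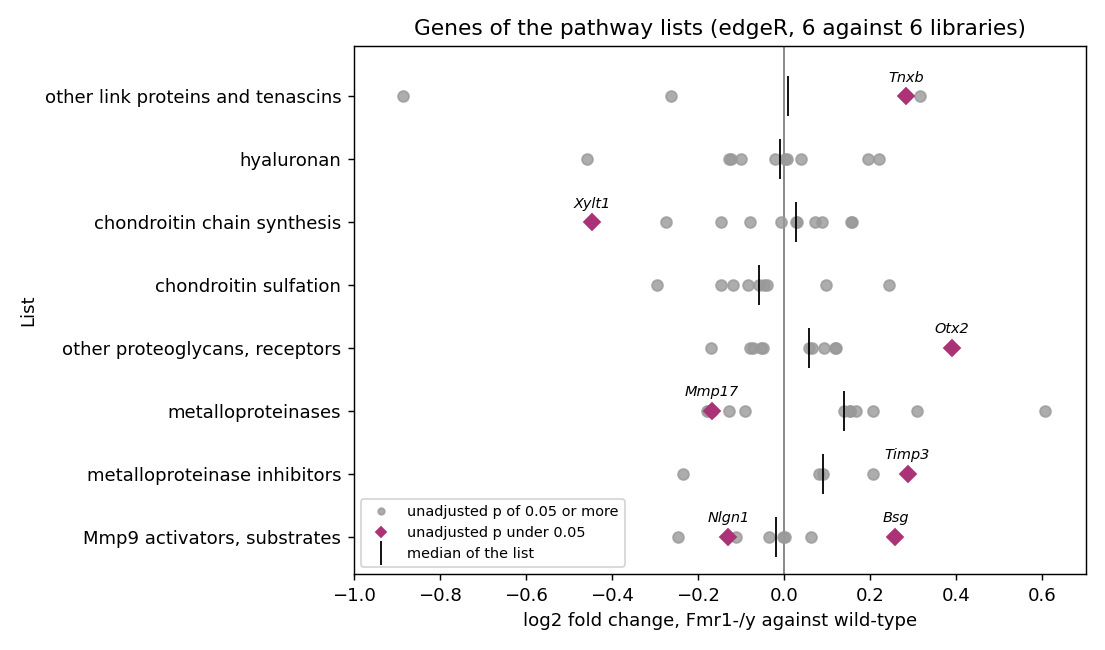
Log2 fold change in Fmr1-/y against wild-type libraries (edgeR) of the 71 tested genes of the 8 pathway lists, 1 point a gene, with black ticks for the median of each list. The 7 named genes (purple) had an unadjusted p under 0.05; none had an adjusted p under 0.05, and the medians lie between -0.06 and 0.14.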

How the data were processed

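Stranded libraries of polyadenylated RNA from HA immunoprecipitates were sequenced by the authors with single reads of 50 bases. Per the labels and the study's methods they were aligned with TopHat2 2.1.1 and Bowtie2 2.2.8 to mm10 with UCSC gene models, alignments with over 3 mismatches were dropped, and reads were counted with HTSeq 0.6.1p1 in union mode. The authors deposited raw counts per gene, without normalization, which were used as they stand. The study tested them with DESeq2 after removing genes under 15 reads.

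Genes with at least 15 reads in total were fitted with edgeR 4.0.16 in R 4.3.3 (TMM, quasi-likelihood test, no covariate) and adjusted over all 17823 genes at 0.05. CPM are TMM-normalized. The standard error is the log2 fold change divided by the root of F, and the 95% interval uses the test's t distribution. RPKM divides CPM by the longest GENCODE M21 transcript, matched by Entrez identifier (93.2% of genes tested, all 9 members). Coordinates are those of RefSeq on GRCm38, the build mm10 stands for. Marker scores are mean log2 CPM (prior count 2) over 13 lists, tested over 924 exact splits (smallest p 0.00216) and adjusted over the lists. Correlations were tested with 100000 permutations within genotype. The edgeR fit was tested on simulated data with 200 changed genes of at least 50 mean reads. It recovered 20.7% of 1.25-fold, 72% of 1.5-fold and 96% of 2-fold changes, and 6.09% of its calls were false. Most changes of 1.25-fold were thus missed, so a gene that did not pass may still differ by such a ratio. With 200 changed genes the adjusted threshold is easier to reach than in the real data, where 4 genes passed. These recoveries may therefore be too high for the 9 members, and larger differences may have been missed too. Alternatives were DESeq2 1.42.0, limma 3.58.1 voom, other scalings and filters, the replicate number as a block, and each library left out. The counting error given for single genes covers no other source of error, while the 95% intervals and p-values cover the spread between pools.

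The members and lists were chosen with earlier results of these data known. Named genes are the members, Fmr1, the pathway genes with an unadjusted p under 0.05 (at most 15), the highest gene per length of each list, the 2 most similar genes per member and the first gene of each marker list. Hapln3, Mmp2, Mmp3, Timp1, Has1, Has2, Has3 and, in the closing section, Col1a1, Slco1a4 and Dkk3 were named after their values were seen, and Chst13 and Plg because they fell under the filter. Same-numbered libraries of the genotypes are not described as pairs in the sources used here.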

Additional observations from a re-analysis of the deposited data

Results flagged for a closer look

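The 9 genes and 13 marker scores were searched in each genotype for a library whose gap to its nearest neighbour was a large part of the range of the 6 libraries (Dixon's test at 95%). Of 44 groups 3 passed, where chance gives about 2.2. Mmp9 was high in Fmr1-/y replicate 2, at 2.73 CPM against 1.77 to 1.99 CPM in the others (ratio 0.770). Ncan was low in Fmr1-/y replicate 3, at 232.2 CPM against 255.0 to 263.0 CPM (ratio 0.738), and this was the library that overlapped the wild-type range. The score of oligodendrocyte precursor markers was low in Fmr1-/y replicate 5, at 2.55 against 2.93 to 3.07 on the log2 scale (ratio 0.736). Nothing was tested about the origin of these values.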

How the results depend on the processing

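No member and no pathway gene passed an adjusted p of 0.05 in any of 20 alternatives to the edgeR fit, and the smallest adjusted p was 0.206 among members (Tnr, DESeq2) and 0.155 among the 7 named pathway genes (Bsg, DESeq2). The number of members with an unadjusted p under 0.05 was 3 in the 8 alternatives that kept all libraries and 2 to 4 when single libraries were left out, and for pathway genes the latter range was 3 to 8. Over all genes 4 passed, against 84 with DESeq2 (53 lower and 31 higher) and 1 with at least 10 reads in every library, and 2 to 6 when single libraries were left out; the cause was not tested. In 180 comparisons of members with an alternative the sign changed in 9, each time with a library left out and a fold change near 0. Over the 12 fits without 1 library the log2 fold change ran from -0.10 to 0.10 for Acan, from -0.0474 to 0.15 for Vcan, from -0.18 to 0.0322 for Hapln1 and from -0.0621 to 0.0033 for Hapln4. The direction was kept by Bcan, Ncan, Tnr, Tnc, Mmp9 and the 7 named pathway genes. Marker scores changed sign in 13 of 169 comparisons, all with a library left out. Those differences ran from -0.0426 to 0.0487 for microglia, -0.10 to 0.0880 for GABAergic, -0.0700 to 0.0612 for oligodendrocyte precursor, -0.0185 to 0.0855 for CA3 and -0.0147 to 0.0678 for CA2 markers, and no score passed. With the union of exons as length, Bcan fell to 38.2 and Hapln4 to 16.9 RPKM; the means of the 9 genes kept their order, but Bcan and Ncan then overlapped. No scaling moved the median log2 fold change of all genes past 0.03.

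The genotypes share replicate numbers. Deviations of same-numbered libraries correlated with -0.08 to 0.09 over all genes (mean 0.03) and -0.44 to 0.60 over genes with a mean log2 CPM over 5, and 0 and 2 of 12 libraries correlated best with their own number. With the replicate block 4 genes, 0 members and 0 pathway genes passed, and 3 members and 8 pathway genes had an unadjusted p under 0.05.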

Other observations

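Markers of vessels were also examined among the marker lists. All 5 endothelial markers had higher means in Fmr1-/y libraries, 4 of them with an unadjusted p under 0.05 (edgeR), where 4.29% of all genes were higher with such a p. None of the 5 passed the adjusted threshold, the smallest p being that of the transporter Slco1a4 (log2 fold change 0.42, adjusted p = 0.378). Their summed level was 37.2 to 54.2 CPM (wild type) and 44.9 to 68.7 CPM (Fmr1-/y), and the mean log2 level was 0.35 higher (two-sided exact permutation test, p = 0.0346, adjusted over 13 lists 0.263). Cldn5, the tight junction protein of brain endothelium, stood at 7.04 ± 2.74 RPKM (SD, n = 12). The 5 markers of mural cells and fibroblasts summed to 41.2 to 55.7 and 48.0 to 75.6 CPM (0.23 higher, exact permutation p = 0.106), with Pdgfrb at 3.72 ± 0.487 RPKM. In this list the collagen gene Col1a1 had a log2 fold change of 0.56 (unadjusted p = 0.000848, adjusted p = 0.239, edgeR). The study's supplement lists Col1a1 among its genes regulated between the genotypes, called with DESeq2 at an adjusted p under 0.05.

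The 5 dentate granule markers summed to 143 to 174 CPM (wild type) and 128 to 160 CPM (Fmr1-/y) (mean log2 difference -0.15, exact permutation p = 0.0606, adjusted 0.263), with Prox1 at 2.05 ± 0.658 RPKM. Of these markers 4 had a log2 fold change below 0 and 1 above. An unadjusted p under 0.05 was found for 1 in each direction (edgeR), where 4.29% of all genes were higher and 3.67% lower with such a p. The 5 CA3 markers summed to 717 to 879 and 602 to 780 CPM, while their mean log2 level had the opposite sign (0.05 higher in Fmr1-/y libraries, exact permutation p = 0.636), with Iyd at 0.746 ± 0.174 RPKM (SD, n = 12). Nearly all of this sum was Dkk3, with means of 734 (wild type) and 656 CPM (Fmr1-/y). Of the 5 markers 2 had a log2 fold change above 0 and 3 below. None of the 13 marker scores passed after adjustment over the lists.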
